A study of Mus musculus with 16 samples.

Results

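The genes described here are those of DNA replication and its licensing, 45 genes taken by name from a fixed list that runs from the origin recognition complex to deoxynucleotide supply and chromatin assembly. Of these, 44 were matched to a probe set among 18193 genes on the array, and Chaf1a was not analysed here. RNA came from mouse embryo heads at 3 embryonic stages, with 6 arrays of E9.5, 4 of E11.5 and 6 of E13.5. Head is the word of the sample titles, whereas the series title names the brain, and the limits of the dissection are not stated. The submitters call the arrays of a stage biological replicates. The sources used here give no strain, sex or treatment, and do not say whether embryos were pooled. RNA of all stages was purified with an RNeasy Lipid Tissue Mini kit and labelled with biotin. The E9.5 and E11.5 RNA was labelled with Affymetrix's IVT kit and the E13.5 RNA with MessageAmp II-Biotin Enhanced, so stage and labelling kit cannot be told apart wherever E13.5 is compared. Each value below is the log2 of a deposited RMA intensity, a level relative to the other transcripts of the same array, and each gene is represented by the brightest of its probe sets, by the mean log2 value of 16 arrays.

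Eukaryotic replication origins are licensed in G1 phase, when the origin recognition complex (Orc genes), Cdc6 and Cdt1 load the ring-shaped MCM helicase onto DNA. Geminin (Gmnn) blocks Cdt1 after the onset of S phase, which limits firing to a single round per cycle. Cyclin E with its kinase partner and the Cdc7-Dbf4 kinase then activate the helicase with Cdc45 and the GINS complex, and polymerases, the PCNA clamp and its loader copy the DNA. In the embryonic head these genes are used by dividing neuroepithelial and mesenchymal cells, and neurons that have left the cell cycle no longer replicate their DNA. Many replication genes are known targets of E2F transcription factors.

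Promoter sequences are described first, because the choice of genes did not use them and E2F words are a feature that part of the genes share. RefSeq windows of 250 bases before to 50 bases after a transcription start (build GRCm38.p6) were matched for 37 of the 45 genes. The words searched on both strands were TTTGGCGC, TTTCCCGC, TTTCGCGC and TTTGCCGC for E2F, CCAAT for the NF-Y box, and TTTGAA for the cell cycle homology region (CHR) of mitotic promoters. At least 1 E2F word lay in the window of 13 of 37 replication genes (35.1%), against 704 of 27025 genes in the table (2.6%). CCAAT was present in 62.2% of the replication genes and 41.1% of all genes, and TTTGAA in 18.9% and 20.2%. A fixed list of mitotic genes had the other arrangement, with the E2F words in 4.0% of 25 windows, CCAAT in 76.0% and TTTGAA in 72.0%.

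**Figure D1:**
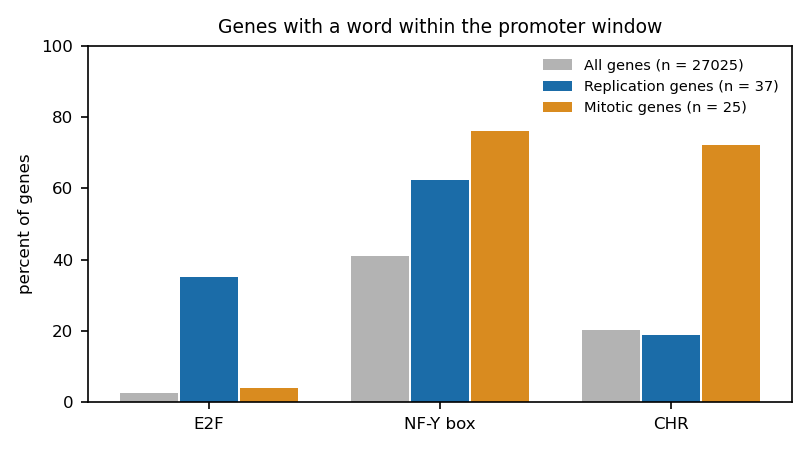
Percent of genes (vertical axis) with at least 1 match to each word set in the 300-base promoter window, for all genes, the replication genes and the mitotic genes. E2F words were present in 35.1% of replication genes, 4.0% of mitotic genes and 2.6% of all genes, and the CHR word in 18.9%, 72.0% and 20.2%.

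The stretches of 30 bases that hold these words are shown for the 13 genes, since they include helicase subunits, licensing factors and polymerases side by side. They are written 5′ to 3′ on the strand of the gene, from RefSeq (GRCm38.p6), with the bases that belong to an E2F word in capitals. GCGGGAAA, GCGCCAAA and GCGCGAAA are the same words read from the opposite strand. A longer run of capitals marks overlapping words.
Mcm3 (chr1:20820275-20820304, minus strand): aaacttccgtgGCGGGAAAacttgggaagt
Mcm3 (chr1:20820263-20820292, minus strand, overlapping the first): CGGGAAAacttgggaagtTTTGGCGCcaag
Mcm5 (chr8:75109345-75109374, plus strand): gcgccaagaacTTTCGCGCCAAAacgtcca
Mcm6 (chr1:128359797-128359826, minus strand): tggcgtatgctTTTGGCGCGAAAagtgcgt
Mcm6 (chr1:128359734-128359763, minus strand): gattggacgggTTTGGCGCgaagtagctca
Mcm7 (chr5:138172030-138172059, minus strand): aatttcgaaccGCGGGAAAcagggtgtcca
Mcm7 (chr5:138171849-138171878, minus strand): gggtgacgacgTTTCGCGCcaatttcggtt
Cdc6 (chr11:98908002-98908031, plus strand): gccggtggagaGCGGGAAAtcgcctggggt
Cdt1 (chr8:122568035-122568064, plus strand): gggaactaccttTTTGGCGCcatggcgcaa
Orc1 (chr4:108579416-108579445, plus strand): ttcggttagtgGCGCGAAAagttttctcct
Gins3 (chr8:95633507-95633536, plus strand): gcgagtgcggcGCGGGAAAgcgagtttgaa
Rfc3 (chr5:151651200-151651229, minus strand): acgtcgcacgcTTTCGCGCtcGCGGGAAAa
Pola1 (chrX:93632275-93632304, minus strand): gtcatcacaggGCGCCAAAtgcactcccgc
Pold1 (chr7:44548766-44548795, minus strand): cacggcggcgtatcttgtgGCGGGAAAagc
Pole2 (chr12:69228162-69228191, minus strand): cgtcggcggtgGCGCCAAAtcgcgaacatg
Lig1 (chr7:13278841-13278870, plus strand): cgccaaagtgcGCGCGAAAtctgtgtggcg

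Of the 6 MCM helicase genes, 4 (Mcm3, Mcm5, Mcm6 and Mcm7) carried an E2F word. Mcm2 had a window without such a word, and Mcm4 had no window and was not searched. The 13 genes with a word had a median log2 difference between E13.5 and E9.5 of -1.26, and the 23 measured genes with a window but no such word had one of -1.02. The range was -3.09 to -0.84 with a word and -2.01 to -0.18 without, so the values overlapped. A match of letters is a description and says nothing of whether a factor bound there in these heads.

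Transcripts of the replication machinery were lower at E13.5 than at E9.5, a comparison in which the labelling kit differs as well as the stage. Between E9.5 and E13.5, 43 of 44 replication genes fell at an adjusted p under 0.05, where 29.1% of all 18193 genes were lower, and 0 were higher, where 32.7% of all genes were. The median log2 difference of the 44 genes was -1.17, against 0.01 over all genes. Falls of at least 2-fold were called for 29 of 44 genes (7.08% of all genes), led by the licensing factor Cdc6. On 42 of 44 genes every E13.5 array lay under every E9.5 array (20.9% of all genes). These are tissue extracts, in which fewer cells of a type and less RNA per cell cannot be told apart.

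The fall was spread over both steps. In the first step, from E9.5 to E11.5, 37 genes fell (26.9% of all genes) and 3 rose (31% of all genes), with a median log2 difference of -0.67 against 0.02 over all genes. Falls of at least 2-fold were called for 10 genes (4.79% of all genes), and on 32 genes all E11.5 arrays were under all E9.5 arrays (17.8% of all genes). In the second step, from E11.5 to E13.5, 30 genes fell (27% of all genes) and 5 rose (27.9% of all genes), with a median of -0.53 against 0.00 over all genes. There 12 genes fell at least 2-fold (3.8% of all genes), and 30 had all E13.5 arrays under all E11.5 arrays (20.7% of all genes). By the moderated F test all 44 genes differed between stages, as did 75.8% of all genes.

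The E11.5 arrays enter both steps, so the steps are not independent, and the difference between them was tested as a contrast of its own. The second step was lower than the first for 13 genes (27% of all genes) and higher for 13 genes (26.3% of all genes), with 18 not called. These shares of called genes were close to the background in both directions.

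**Figure D2:**
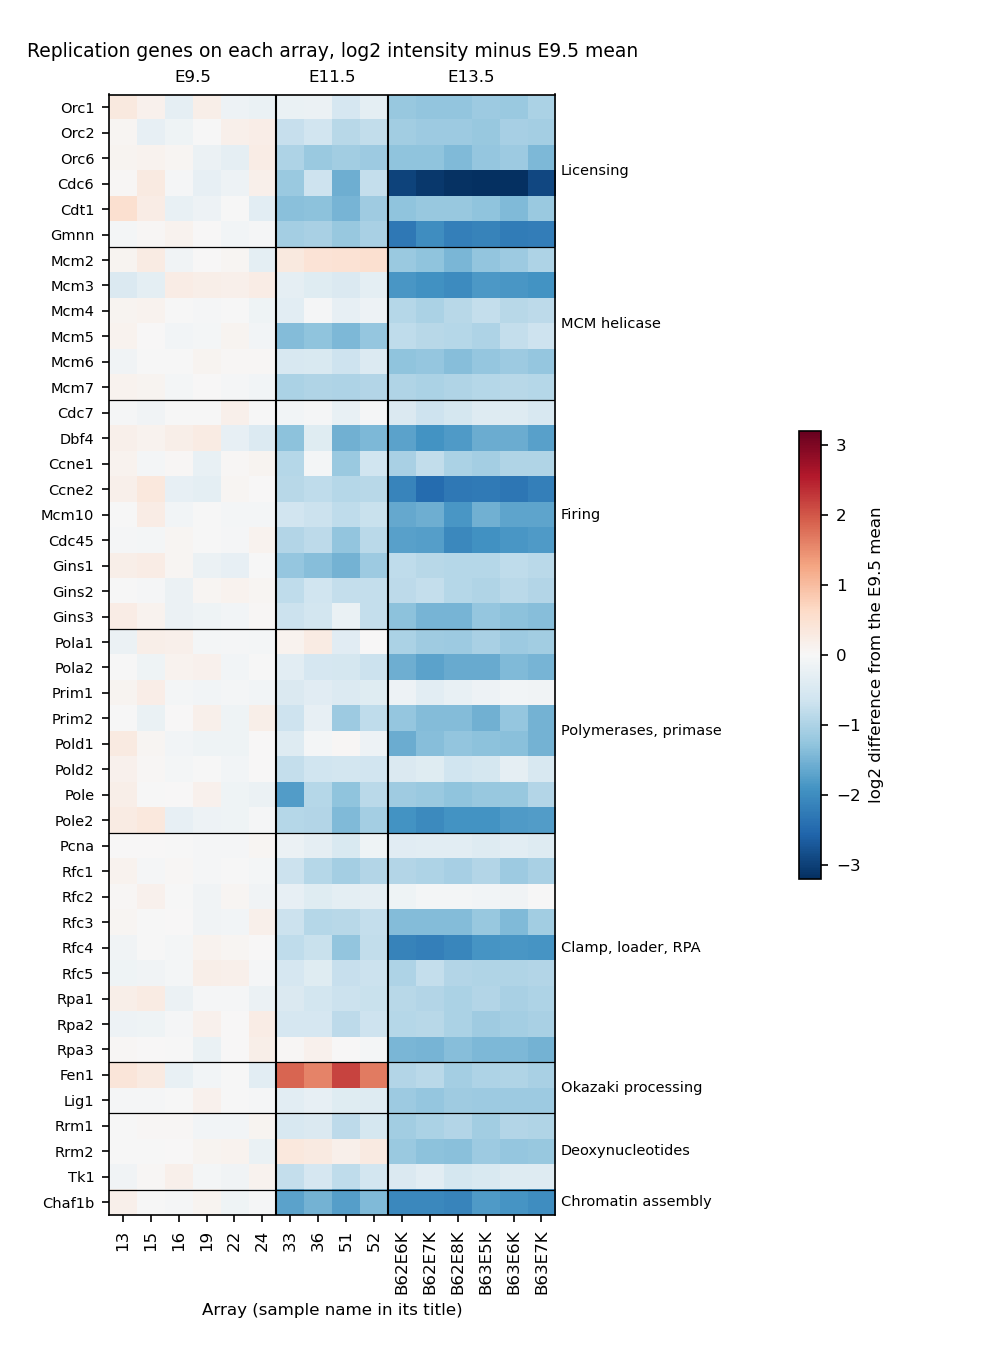
Each row is a replication gene, grouped by role, and each column an array named by its sample. Colour is the log2 intensity minus the mean of the 6 E9.5 arrays. Nearly all rows turn blue at E13.5, deepest for Cdc6, and the strongest red cells at E11.5 are those of Fen1, Mcm2 and Rrm2.

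All 6 licensing genes fell from E9.5 to E11.5 and over the whole interval, and 4 of 6 also fell in the second step. Cdc6, the ATPase that helps load the MCM ring, had log2 intensities of 9.44 (lowest), 9.70 (median) and 10.01 (highest) at E9.5. On the E11.5 arrays 33, 36, 51 and 52 Cdc6 was at 8.53, 9.05, 8.15 and 8.95, and at E13.5 it lay between 6.49 and 6.79 (median 6.59). The 3 stages did not overlap, and sample 51 was lowest of its stage. Cdc6 was 8.51-fold lower at E13.5 than at E9.5 (log2 difference -3.09 ± 0.13 SE, adjusted p = 2.54e-14). Its fall in the second step (-2.05 ± 0.14) was larger than that in the first (-1.04 ± 0.14), and this difference of -1.01 ± 0.26 had an adjusted p of 0.00264.

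Gmnn, the inhibitor of Cdt1, stood between 10.76 and 10.97 at E9.5 (median 10.85). Its E11.5 values were 9.77, 9.82, 9.65 and 9.83 in the order of samples 33, 36, 51 and 52, and its E13.5 values ran from 8.57 to 8.86 (median 8.66). The stages were again separate and evenly spaced. Gmnn fell by 1.09 ± 0.07 (SE) on the log2 scale in the first step and by 1.08 ± 0.07 in the second (adjusted p = 2.07e-10 and 2.18e-10).

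Cdt1, the loading factor that geminin binds, was at 10.46 to 11.32 at E9.5 (median 10.71), with samples 13 and 15 highest. It was at 9.47, 9.50, 9.31 and 9.66 on the 4 E11.5 arrays in the same order, and at 9.39 to 9.61 at E13.5 (median 9.55). E11.5 and E13.5 overlapped on this probe set. Cdt1 fell by 1.31 ± 0.13 in the first step (adjusted p = 3.47e-08) and did not pass the test in the second, at 0.05 ± 0.13 (adjusted p = 0.764). Its next probe set, also well above the dim end of the array, fell in both steps, by -0.79 and by -1.06 (adjusted p = 1.15e-07 and 1.48e-09 over all probe sets).

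The origin recognition genes differed among themselves. Orc6 fell by 1.11 ± 0.10 in the first step (adjusted p = 6.3e-09), and its second step of -0.19 ± 0.10 was not called (adjusted p = 0.101). Orc1, the ATPase subunit whose level is known to vary through the cell cycle, fell mainly in the second step (-0.87 ± 0.11, adjusted p = 1.26e-06). Its first step of -0.31 ± 0.11 (adjusted p = 0.0236) was no longer called without E9.5 samples 13 or 19 (adjusted p = 0.0533 and 0.0516) or E11.5 sample 51 (adjusted p = 0.1). The second probe set of Orc1 fell further, by -0.996 in the first step and -1.73 in the second. Orc2 fell in both steps, by -0.76 ± 0.09 and -0.38 ± 0.09.

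**Figure D3:**
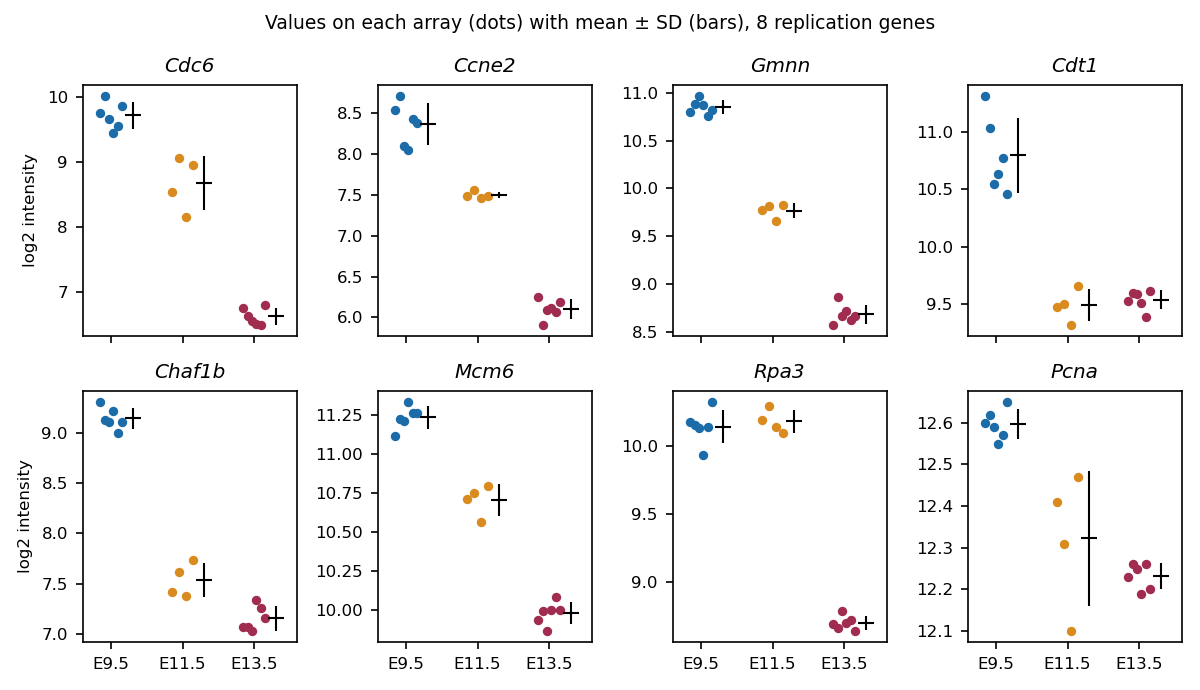
Log2 intensity of 8 replication genes on each array (dots), by stage, with the mean and SD as bars (n = 6, 4 and 6). Cdc6, Ccne2, Gmnn and Mcm6 step down at each stage, Cdt1 and Chaf1b fall mostly by E11.5, and Rpa3 falls between E11.5 and E13.5. The vertical scales differ between panels and do not start at 0.

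All 6 genes of the MCM helicase, the ring that unwinds DNA ahead of the fork, were lower at E13.5 than at E9.5 (log2 differences of -1.90 to -0.84). The brightest probe set of Mcm6 stepped down evenly, from 11.11 to 11.33 at E9.5 (median 11.24) through 10.71, 10.75, 10.56 and 10.79 at E11.5 to 9.86 to 10.08 at E13.5 (median 9.996). No stages overlapped, and its log2 differences were -0.53 ± 0.07 and -0.72 ± 0.07 (adjusted p = 3.41e-06 and 5.41e-08). The next Mcm6 probe set fell mainly in the first step. Its differences were -1.44 and -0.34 (adjusted p = 5.72e-09 and 0.0277 over all probe sets). Mcm3 fell most over the whole interval (-1.90 ± 0.11, adjusted p = 2.9e-12), mainly in the second step (-1.53 ± 0.12). Mcm3 was lowest at E9.5 in samples 13 and 15, with intensities of 1088 and 1229 against 1672 to 1775 in the other 4. Mcm4 fell in the second step (-0.69 ± 0.08, adjusted p = 3.09e-07). Its small first step (-0.20 ± 0.08, adjusted p = 0.0418) lost its call when any of 10 single arrays was left out, with adjusted p of 0.0509 to 0.144 then. The other Mcm4 probe set fell clearly in both steps, by -0.87 and -0.68 (adjusted p = 2.98e-06 and 5.4e-05 over all probe sets).

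The brightest probe set of Mcm5 moved down and then partly back. Its log2 intensity was 11.43 to 11.62 at E9.5 (median 11.49), then 10.13, 10.22, 10.06 and 10.28 at E11.5, then 10.52 to 10.84 at E13.5 (median 10.67). All E13.5 arrays lay above all E11.5 arrays and under all E9.5 arrays. On this probe set Mcm5 fell by 1.34 ± 0.08 in the first step (adjusted p = 2.35e-11) and rose by 0.50 ± 0.08 in the second (adjusted p = 1.73e-05). A further probe set moved the same ways, by -1.65 and then 0.22 (adjusted p = 0.0536, not called). The dimmest of the 3 Mcm5 probe sets fell in the second step, by -0.48. With the mean of the 3 the second step of Mcm5 was 0.083 and not called (adjusted p = 0.27).

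Mcm2 was one of 3 replication genes that were higher at E11.5 than at E9.5. Its brightest probe set was at 9.85 to 10.43 at E9.5 (median 10.19), at 10.47, 10.61, 10.63 and 10.68 at E11.5, and at 8.70 to 9.18 at E13.5 (median 8.93). It rose by 0.44 ± 0.10 (adjusted p = 0.00117) and then fell by 1.66 ± 0.10 (adjusted p = 5.45e-11). The other Mcm2 probe set fell in both steps, by -1.04 and -1.20 (adjusted p = 6.16e-09 and 6.33e-10), with intensities of 1317 to 1614, 590 to 806 and 287 to 346 at the 3 stages. The direction of Mcm2 in the first step therefore differed between its probe sets.

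Mcm7 likewise depended on the probe set. The brightest was at 12.30 to 12.52 at E9.5 (median 12.38), at 11.38, 11.44, 11.41 and 11.47 at E11.5 and at 11.39 to 11.52 at E13.5 (median 11.47). It fell in the first step (-0.98 ± 0.07, adjusted p = 2.43e-10) and was not called in the second (0.04 ± 0.07, adjusted p = 0.623). The other 3 Mcm7 probe sets all fell in the second step, by -1.20, -0.98 and -1.05.

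All 9 genes of origin firing and helicase activation were lower at E13.5 than at E9.5, 8 fell in the first step and 6 in the second. The largest fall was that of Ccne2, which encodes cyclin E2 and drives entry into S phase. Ccne2 was at 8.05 to 8.71 at E9.5 (median 8.41), at 7.49, 7.55, 7.46 and 7.48 at E11.5, and at 5.91 to 6.25 at E13.5 (median 6.10). The stages did not overlap, and it was 4.82-fold lower at E13.5 (log2 difference -2.27 ± 0.10, adjusted p = 4.43e-14).

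Ccne1, for the other cyclin E, fell in the first step (-0.70 ± 0.15, adjusted p = 3.27e-04). In the second step it was at -0.27 ± 0.15 (adjusted p = 0.119), and its E11.5 arrays varied, at 8.05, 8.90, 7.78 and 8.34. Without E11.5 sample 51 the second step of Ccne1 was called, at -0.44 (adjusted p = 0.00996). Its other probe set fell by -1.61 in the first step and rose by 0.22 in the second (adjusted p = 0.0392).

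Dbf4, the activating subunit of the Cdc7 kinase, was the least even replication gene within a stage at E11.5. It was at 10.14 to 10.83 at E9.5 (median 10.71), at 9.26, 10.18, 9.02 and 9.12 at E11.5, and at 8.66 to 8.98 at E13.5 (median 8.85). Sample 36 reached the lowest E9.5 array. Dbf4 fell by 1.18 ± 0.18 in the first step (adjusted p = 9.39e-06) and by 0.55 ± 0.18 in the second (adjusted p = 0.0125). Without sample 36 the second step was -0.29 and no longer called (adjusted p = 0.0772). Cdc7 itself changed less, at -0.10 ± 0.08 in the first step (adjusted p = 0.298) and -0.41 ± 0.08 in the second (adjusted p = 1.48e-04), and its dimmer probe set fell in both.

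Among the components of the active helicase, Cdc45 fell in both steps (-0.98 ± 0.09 and -0.89 ± 0.09), as did Mcm10 (-0.70 ± 0.08 and -0.96 ± 0.08) and the GINS subunit gene Gins3 (-0.56 ± 0.11 and -0.81 ± 0.11). With the second-brightest probe set the first step of Cdc45 was -0.13 and not called (adjusted p = 0.391). The second-brightest Mcm10 probe set was at 0.23 in the first step (adjusted p = 0.0669) and fell by -1.33 in the second. Gins1 fell from 9.04 to 9.54 at E9.5 (median 9.33) to 8.05, 7.94, 7.79 and 8.13 at E11.5, and was at 8.40 to 8.50 at E13.5 (median 8.43). It fell by 1.33 ± 0.10 (adjusted p = 5.01e-10) and then rose by 0.47 ± 0.10 (adjusted p = 3.99e-04). The other Gins1 probe set, with intensities of only 15 to 53, fell in both steps. Gins2 fell in the first step (-0.74 ± 0.08, adjusted p = 6.22e-08) and was at -0.14 ± 0.08 in the second (adjusted p = 0.13), in which its other probe set rose by 0.48.

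All 8 genes of the polymerases and primase were lower at E13.5 than at E9.5. In the first step 6 of the 8 fell and in the second 5 fell and 1 rose. Pola1, the catalytic subunit of the polymerase that starts each new strand, was at 8.83 to 9.20 at E9.5 (median 8.97), at 9.14, 9.29, 8.66 and 9.03 at E11.5 and at 7.84 to 8.01 at E13.5 (median 7.89). The first 2 stages overlapped (0.01 ± 0.10, adjusted p = 0.94), and Pola1 then fell by 1.12 ± 0.10 (adjusted p = 1.53e-08). The only other Pola1 probe set had intensities of 9 to 14, around the lower quartile of 12 of all probe sets, and gave no call. Pola2, its accessory subunit, fell in both steps (-0.53 ± 0.08 and -1.04 ± 0.08), while the dimmest of its 3 probe sets rose in the second, by 0.72. With the mean of the 3 the second step of Pola2 was -0.033 and not called (adjusted p = 0.771). The 2 dimmer Pola2 probe sets had intensities of only 13 to 23 and 7 to 26, near that lower quartile.

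Pold1, the catalytic subunit of the lagging-strand polymerase delta, was at 9.35 to 9.79 at E9.5 (median 9.46), at 9.08, 9.42, 9.53 and 9.34 at E11.5, and at 7.91 to 8.23 at E13.5 (median 8.14). Its first step was not called (-0.15 ± 0.10, adjusted p = 0.215), and it fell by 1.25 ± 0.10 in the second (adjusted p = 2.68e-09). The other Pold1 probe set fell in both steps, by -0.35 and -0.37. Pold2, the accessory subunit, was at 8.73 to 8.97 at E9.5 (median 8.82), at 8.06, 8.20, 8.23 and 8.21 at E11.5 and at 8.19 to 8.55 at E13.5 (median 8.34). It fell in the first step (-0.65 ± 0.08, adjusted p = 6.43e-07) and was not called in the second (0.18 ± 0.08, adjusted p = 0.0611).

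Pole, the catalytic subunit of the leading-strand polymerase, fell by 1.21 ± 0.14 in the first step (adjusted p = 2.86e-07) and was at 0.05 ± 0.14 in the second (adjusted p = 0.775). Its E11.5 arrays were uneven, at 7.29, 8.19, 7.79 and 8.23. Pole2, the accessory subunit, fell in both steps, by 1.08 ± 0.12 and by 0.81 ± 0.12, the second not called on its dim other probe set (0.038, adjusted p = 0.822). The primase gene Prim1 fell in the first step (-0.41 ± 0.08, adjusted p = 1.33e-04) and rose in the second (0.23 ± 0.08, adjusted p = 0.0162). Over the whole interval Prim1 was lower by 0.18 on the log2 scale (-0.18 ± 0.07, adjusted p = 0.0308), a call lost when any of E9.5 samples 13 and 15 or E13.5 samples B62E7K and B62E8K was left out (adjusted p = 0.0585 to 0.0806). Its other probe set fell over the whole interval by -0.99. Prim2, the large primase subunit, fell in both steps (-0.73 ± 0.13 and -0.66 ± 0.13), and the dimmest of its 3 probe sets rose in the second (0.35, adjusted p = 0.0428). The second step of Prim2 was not called with the mean of its probe sets (-0.15, adjusted p = 0.0968) or the second-brightest (-0.16, adjusted p = 0.459).

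Pcna, the sliding clamp that holds polymerases on DNA, fell only a little. It was at 12.55 to 12.65 at E9.5 (median 12.59), at 12.41, 12.31, 12.10 and 12.47 at E11.5 and at 12.19 to 12.26 at E13.5 (median 12.24). Pcna fell by 0.28 ± 0.07 in the first step (adjusted p = 0.00307), the second was not called (-0.09 ± 0.07, adjusted p = 0.345), and the whole fall was 1.28-fold.

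Of the 5 clamp loader genes, all fell in the first step, and Rfc4 fell most over the interval. Rfc4 was at 9.57 to 9.82 at E9.5 (median 9.70), at 8.88, 8.98, 8.43 and 8.90 at E11.5 and at 7.50 to 7.84 at E13.5 (median 7.71). Its log2 differences were -0.90 ± 0.10 and -1.11 ± 0.10, 4.02-fold over both steps. Rfc3 fell in both steps (-0.81 ± 0.08 and -0.50 ± 0.08), as did Rfc5 (-0.59 ± 0.09 and -0.33 ± 0.09). Rfc1, the large subunit, was not called in the second step on its brightest probe set (-0.12 ± 0.08, adjusted p = 0.236). Its other 2 probe sets moved apart there, by -0.54 and by 1.20 (adjusted p = 9.87e-05 and 1.23e-06 over all probe sets). Rfc2 was the only replication gene not called over the whole interval (-0.07 ± 0.06, adjusted p = 0.333), with a fall in the first step (-0.31 ± 0.07) and a rise in the second (0.23 ± 0.07, adjusted p = 0.00888). The other 2 Rfc2 probe sets were lower at E13.5 than at E9.5, by -1.12 and -0.99.

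The 3 subunits of RPA, which coats single-stranded DNA, were all lower at E13.5 than at E9.5. Rpa3, the smallest, was at 9.93 to 10.32 at E9.5 (median 10.15), at 10.19, 10.29, 10.14 and 10.09 at E11.5 and at 8.64 to 8.79 at E13.5 (median 8.69). Its first 2 stages overlapped (0.04 ± 0.08, adjusted p = 0.692), and it fell 2.79-fold in the second step (-1.48 ± 0.08, adjusted p = 3.23e-12). Rpa1 fell by 0.61 ± 0.09 and 0.35 ± 0.09, and Rpa2 by 0.64 ± 0.09 and 0.37 ± 0.09. The other probe sets of Rpa1 and Rpa2 fell by -1.19 and -1.10 in the second step, and that of Rpa2 was not called in the first (-0.15, adjusted p = 0.201).

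Fen1, the nuclease that trims the flaps of Okazaki fragments, gave the largest opposed change. Its brightest probe set was at 10.40 to 11.11 at E9.5 (median 10.68), at 12.59, 12.32, 12.88 and 12.40 at E11.5 and at 9.65 to 9.86 at E13.5 (median 9.74). It rose 3.52-fold (1.82 ± 0.13, adjusted p = 3.21e-10) and then fell 6.96-fold (-2.80 ± 0.13, adjusted p = 5.8e-13). The other Fen1 probe set had intensities of 549 to 826, then 402, 431, 336 and 367, then 167 to 207. It fell in both steps, by -0.85 and -1.04 (adjusted p = 1.03e-06 and 6.04e-08), so the rise rested on a single probe set. The name of the rising probe set ends in _x_at, the array maker's mark for probes that can match other transcripts. The brightest probe sets of Rrm2, Mcm5, Pold1 and Ccne1 carry the same mark, and the name of that of Mcm2 ends in _s_at. Lig1, the ligase that seals the fragments, fell in both steps (-0.35 ± 0.07 and -0.82 ± 0.07).

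Of the genes that supply deoxynucleotides, Rrm1 and Rrm2 encode the subunits of ribonucleotide reductase. Rrm2 was at 11.54 to 11.87 at E9.5 (median 11.74), at 12.08, 12.04, 11.90 and 12.03 at E11.5 and at 10.42 to 10.59 at E13.5 (median 10.53). It rose by 0.26 ± 0.08 (adjusted p = 0.00557) and fell by 1.50 ± 0.08 (adjusted p = 2.39e-12), while its other 2 probe sets fell in the first step, by -0.36 and -0.56. Rrm1 fell in both steps (-0.59 ± 0.08 and -0.42 ± 0.08), but with its second-brightest probe set the first was -0.16 and not called (adjusted p = 0.177). Thymidine kinase Tk1 fell by 0.68 ± 0.08 in the first step (adjusted p = 6.64e-07), from 8.40 to 8.69 down to 7.76, 8.0, 7.71 and 7.93. At E13.5 it was at 7.97 to 8.19, a rise of 0.23 ± 0.08 (adjusted p = 0.0219) that was not called without E11.5 sample 33 (adjusted p = 0.0672) or 51 (adjusted p = 0.0799). With median centring of the arrays, or with the B62 or B63 in E13.5 titles as a random block, the second-step rises of Prim1, Rfc2 and Tk1 were not called (adjusted p = 0.0574 to 0.112).

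Chaf1b, a subunit of the factor that sets histones onto new DNA, had the largest fall of the first step. It was at 8.997 to 9.30 at E9.5 (median 9.11), at 7.42, 7.62, 7.38 and 7.74 at E11.5 and at 7.03 to 7.34 at E13.5 (median 7.12). The fall was 3.04-fold in the first step (-1.60 ± 0.09, adjusted p = 1.27e-11) and 1.30-fold in the second (-0.38 ± 0.09, adjusted p = 0.00126), and the second was not called with the second-brightest probe set (-0.0018, adjusted p = 0.992). That probe set was dim, with intensities of 17 to 27.

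**Figure D4:**
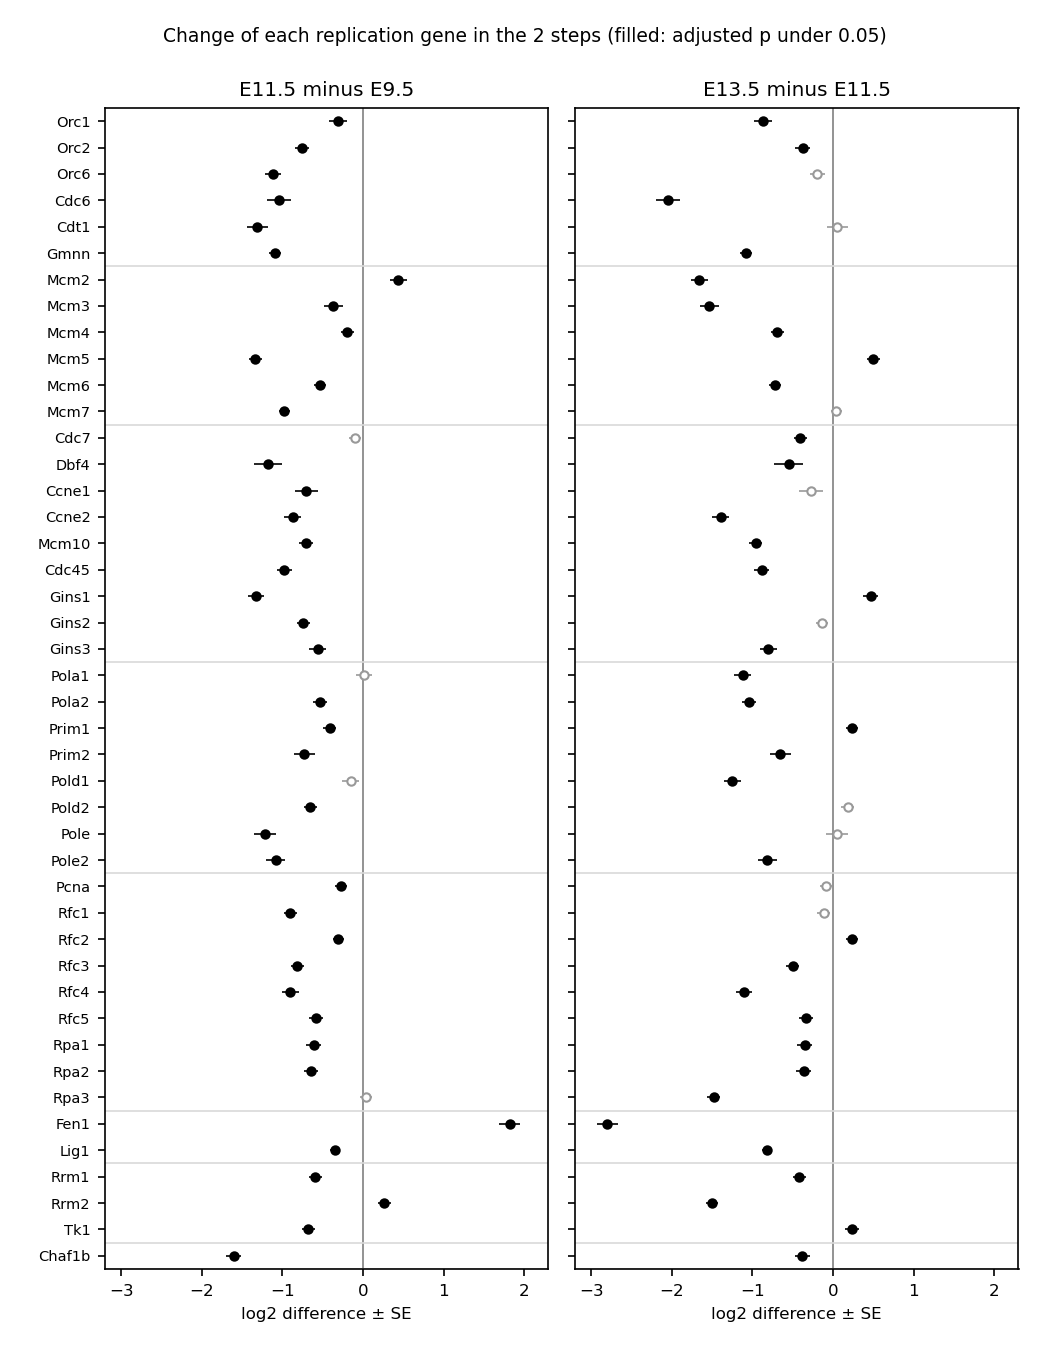
Log2 difference (horizontal axes) with its SE for each replication gene in the first step (left) and the second (right). Filled points passed the test. Most points lie left of 0 in both panels, Fen1, Mcm2 and Rrm2 lie right of 0 in the first, and Mcm5 and Gins1 lie furthest right in the second.

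Because single probe sets decided several directions, all 93 probe sets of the replication genes were fitted with the 34945 probe sets that name a single gene. From E9.5 to E13.5, 87 of 93 fell (32.5% of all probe sets) and 2 rose (28.7% of all probe sets), the latter being the dimmest of 5 for Mcm3 (0.37) and the dimmest of 3 for Prim2 (0.50). In the first step 74 fell (28% of all probe sets) and 4 rose (27.2% of all probe sets), and in the second 62 fell (28.4% of all probe sets) and 11 rose (25.9% of all probe sets). Of the 33 genes with several probe sets, the brightest and another were called with opposite signs for Fen1, Mcm2, Mcm3 and Rrm2 in the first step, and for Gins1, Mcm5, Pola2 and Prim2 in the second. For Rfc1 the 2 other probe sets were called with opposite signs in the second step. The 3 genes counted as rising in the first step were thus all genes with a falling probe set.

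**Figure D5:**
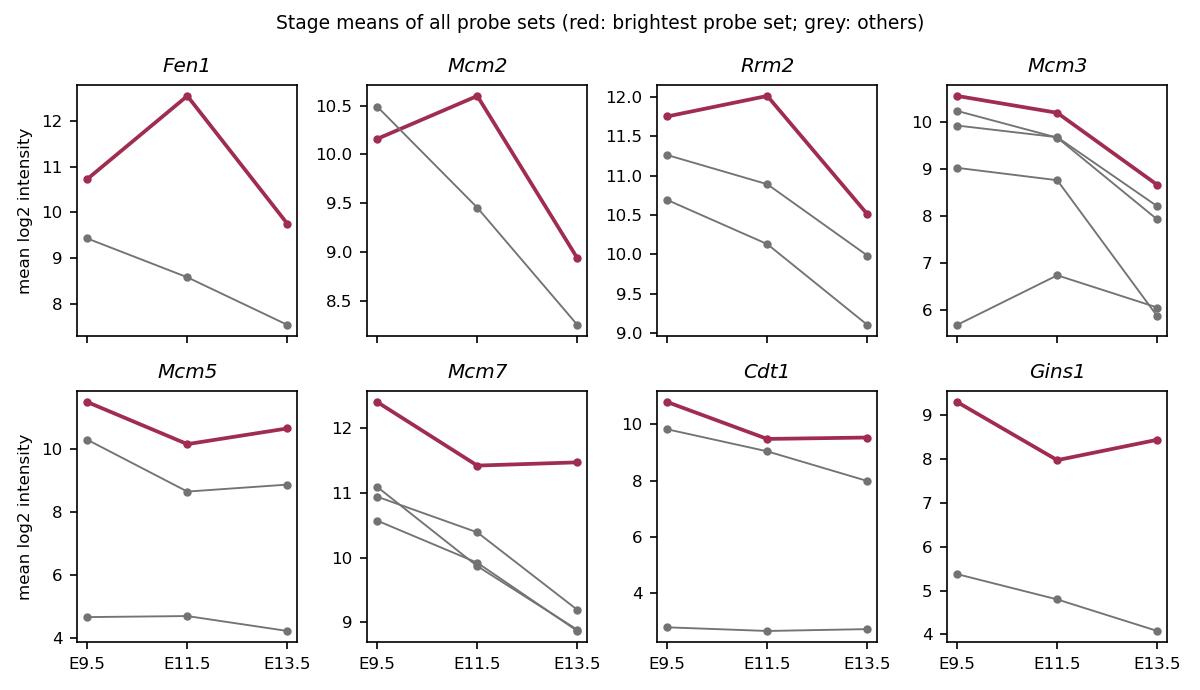
Stage means of log2 intensity for every probe set of 8 replication genes whose probe sets disagreed. Red lines are the brightest probe set by its mean over all arrays and grey lines the others. For Fen1, Mcm2 and Rrm2 the red line rises to E11.5 where every grey line falls. The vertical scales differ between panels and do not start at 0.

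Partner genes were compared within each array, as the log2 level of the first minus that of the second, for 11 pairs over the 3 stage comparisons (33 exact permutation tests, two-sided). After Benjamini-Hochberg adjustment over them 23 were called. The smallest p that the design allows is 0.00476 for 4 against 6 arrays and 0.00216 for 6 against 6. Pold1 fell less than Pold2 in the first step, by a difference of 0.50 ± 0.07 (SE), and more in the second, by -1.43 ± 0.10 (exact p = 0.00476 and adjusted p = 0.00748 for each). With the second-brightest probe sets the first-step difference was 0.30 and not called (adjusted p = 0.118 by the exact permutation test). Ccne2 fell more than Ccne1 over the whole interval (1.29 ± 0.13, exact p = 0.00216, adjusted p = 0.00748), and this kept its direction with the other Ccne1 probe set.

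The difference between Cdt1 and Gmnn was not called in the first step (-0.23 ± 0.15, exact p = 0.281, adjusted p = 0.343), but it was called in the opposite direction with the mean of all probe sets (0.34, adjusted p = 0.0286) and with the second-brightest (0.30, adjusted p = 0.0121). In the second step Gmnn fell more, by 1.14 ± 0.06 (exact p = 0.00476, adjusted p = 0.00748), on the Cdt1 probe set that was not called there. With the second-brightest that difference was 0.027 (adjusted p = 0.91 by the exact permutation test). Dbf4 fell more than Cdc7 over the whole interval (1.23 ± 0.14, exact p = 0.00216, adjusted p = 0.00748). Their difference in the first step (1.08 ± 0.28, exact p = 0.019, adjusted p = 0.0273) was not called without E11.5 sample 33 or 52 (adjusted p = 0.0512 for each). With the second-brightest probe sets neither was called, at 0.33 over the whole interval and 0.37 in the first step (adjusted p = 0.208 and 0.282 by the exact permutation test). With the mean or the second-brightest probe set, Cdt1 against Gmnn, Ccne1 against Ccne2, Rrm1 against Rrm2, Prim1 against Prim2, Pole against Pole2, Orc1 against Orc2, Mcm2 against Mcm6 and Pcna against Fen1 turned their direction in at least 1 comparison.

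Within a stage the replication genes had a median SD of 0.12 at E9.5, 0.14 at E11.5 and 0.09 at E13.5, against 0.18, 0.18 and 0.11 over all genes. E11.5 sample 51 was lowest of its stage for 27 of 44 genes, with a median deviation of -0.12 from the stage mean, and the mitotic genes were at -0.13 on the same array. The E9.5 arrays were uneven in neuron markers. Their median deviations were -0.65, -0.45, 0.35, 0.62, 0.37 and -0.21 in samples 13, 15, 16, 19, 22 and 24. Those of the replication genes lay between -0.03 and 0.06 there. At E13.5 the titles carry the prefix B62 or B63, which the sources used here do not explain. In every B63 array 7 replication genes were higher (15.9%, against 3.79% of all genes) and 1 was lower (2.27%, against 4.92%) than in every B62 array. Mcm4, Mcm6, Mcm7, Orc1, Rfc4, Prim1 and Chaf1b were the higher genes and Rpa2 the lower, by 0.08 to 0.27 in size. The median difference from E11.5 was -0.59 in the 3 B62 arrays and -0.45 in the 3 B63 arrays, so the fall was present in both.

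Most other genes of the pathway, from a list without any of the 45, also fell. Of 38 further replication factors measured, 28 fell and 3 rose in the first step (median -0.54), and 24 fell and 4 rose in the second (median -0.41). Over the whole interval 32 fell and 4 rose. Of all genes, 26.9% fell and 31% rose in the first step, 27% and 27.9% in the second, and 29.1% and 32.7% over both. In the first step Chtf18 and Dscc1, of an alternative clamp loader, fell by -1.81 and -1.77 and the helicase gene Recql4 by -1.78, while Supt16, of the histone chaperone FACT, rose by 1.84. In the second step the largest changes were those of the replication timing factor Rif1 (-1.70), the nuclease gene Dna2 (-1.07), the helicase gene Mcm8 (-1.04) and the origin firing factor Ticrr (-0.996). The maintenance DNA methyltransferase gene Dnmt1 was not called in the first step (-0.15) and rose in the second (0.63).

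Of 11 further genes of deoxynucleotide supply, 8 fell (26.9% of all genes) and 2 rose (31% of all genes) in the first step. In the second 5 fell (27% of all genes) and 2 rose (27.9% of all genes). The deoxyuridine triphosphatase gene Dut fell by -1.21 and -0.31 and thymidylate synthase Tyms by -0.87 and -0.52, whereas deoxycytidine kinase Dck rose by 0.98 and then fell by -2.27. Of 10 mitochondrial DNA replication genes, 9 fell in the first step (26.9% of all genes), led by Top1mt (-1.42), and 1 rose, the RNA polymerase gene Polrmt (0.24). In the second 2 fell (27% of all genes) and 3 rose (27.9% of all genes), with a median of 0.07.

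E2F and pocket protein genes regulate the G1 to S transition. The list of 18 read here also held Lin9, Lin37, Lin52, Lin54 and Rbbp4, which encode neither. In the first step 5 of 18 fell, close to the 26.9% of all genes, and 8 rose, against 31% of all genes (median 0.27). In the second 15 fell (27% of all genes) and 1 rose (27.9% of all genes), with a median of -0.69. E2f3 rose by 0.27 and then fell by -1.87, and the dimerisation partner gene Tfdp2 rose by 1.12 and then fell by -1.31. Rbl2, a pocket protein of resting cells, was the gene that rose in the second step (0.91).

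Most mitotic genes fell. Of 29 measured, 21 fell and 3 rose in the first step (median -0.61), 23 fell and 3 rose in the second (median -0.51), and 27 fell and 0 rose over the whole interval (median -1.09). The shares of all genes were 26.9% falling and 31% rising in the first step. They were 27% and 27.9% in the second, and 29.1% and 32.7% over both. Kif20a, a cytokinesis kinesin, fell by -1.62 in the first step, and the cytokinesis factor Ect2 rose by 0.38 and then fell by -1.93. Cell cycle exit genes went the other way (Rbl2 is in this list too). Of 10, 8 rose and 0 fell in the first step, and all 10 were higher at E13.5 than at E9.5 (median 1.24), with the kinase inhibitors Cdkn2c up by 2.40 in the first step and Cdkn1c by 1.70 in the second.

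Markers of cell types changed over the same intervals, and their part in the fall of the replication genes was not tested. For comparison, 26.9% of all genes fell and 31% rose in the first step. The shares were 27% and 27.9% in the second, and 29.1% and 32.7% over both. All 12 neuron markers rose in the first step and 9 in the second, and the sum of their intensities was 1263 to 2710 at E9.5, 9986 to 11444 at E11.5 and 17870 to 18902 at E13.5. That of the 44 replication genes was 51590 to 55717, 40034 to 42433 and 25526 to 26673. Of 12 neural progenitor markers, 7 rose and 3 fell in the first step, and 3 rose and 8 fell in the second (sums of 8654 to 11129, 15083 to 15918 and 13851 to 14586). From E9.5 to E13.5, 6 of them rose and 6 fell (median -0.18). Sox2, which keeps neural progenitors dividing, was not called in the first step (-0.08) and fell in the second (-1.04). Of 8 measured brain region markers, 5 fell and 1 rose in the first step (median -0.57). In the second 2 fell and 2 rose (median 0.06), close to the shares of all genes. The sums of the brain region markers were 1585 to 2355, 1490 to 1674 and 1351 to 1450. These markers, like the neuron and progenitor markers, all had mean intensities above the lower quartile of 12 at each stage.

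Among the other tissues of a head, 9 of 10 connective tissue markers rose in the first step and 8 in the second, with sums of 4024 to 5169, 9480 to 10135 and 25809 to 28218. The shares of all genes were 31% rising and 26.9% falling in the first step, and 27.9% and 27% in the second. Of 10 muscle markers, 3 rose and 3 fell in the first step, close to these shares, and 9 rose in the second. Their sums were 203 to 264, 199 to 216 and 5253 to 7358, and Myf5 stayed under the lower quartile at every stage. Of 9 red blood cell markers measured, 4 rose and 2 fell in the first step, and 0 rose and 8 fell in the second. The red blood cell sums were 26311 to 31086, 27847 to 39333 and 13919 to 17311, with Hba-a1 under the lower quartile throughout. Of 8 markers each, 1 endothelial, 0 surface ectoderm and 6 macrophage markers rose in the first step, and 5, 7 and 6 in the second. In the same order 3, 4 and 0 of these markers fell in the first step, and 1, 1 and 0 in the second. Their sums were 812 to 978, 695 to 770 and 990 to 1046 for endothelium, 967 to 1572, 577 to 689 and 1315 to 1421 for surface ectoderm, and 138 to 161, 496 to 577 and 717 to 919 for macrophages.

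Control probe sets also differed between stages, and their part in these results was not tested. Poly-A spike-in transcripts, which are mixed into the RNA, averaged 6.94 ± 0.21 (SD, n = 6), 5.12 ± 0.08 (n = 4) and 4.86 ± 0.09 (n = 6) on the log2 scale over 15 probe sets. The excess of 3′ over 5′ signal of Gapdh was 0.18, 0.14 and 0.04, and that of beta-actin 0.82, 0.56 and 0.47, in stage order.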

How the data were processed

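RNA from embryo heads was hybridised to 16 arrays of 1 colour. The deposited values are linear intensity values of 45101 probe sets, made by the authors with RMA per the submitters' processing notes; the sources used here give neither its version nor its settings. RMA sets arrays to one scale, so changes are relative to other transcripts (median intensity 32 on each array), and array number limits the precision. Values were taken to log2. Besides 64 control probe sets, which were left out, the platform annotation gave 34945 probe sets a single gene, 932 several and 9160 none; 0 sample columns stayed unused. Stages were compared with limma (version 3.58.1, R version 4.3.3), by lmFit and eBayes in a single model of the 16 arrays, and p-values were adjusted over 18193 genes in each comparison by Benjamini and Hochberg's method, with a call at an adjusted p under 0.05. Errors are SE of a log2 difference. Pairs of genes used exact permutation tests over arrays. Genes were named by role: the 2 largest changes, those called against the list's median, those not called and those with opposed probe sets; of other lists, up to 4 called genes with the largest change. Other genes named there (Dnmt1, Tyms, Rbl2, Sox2 and others) were chosen after their values were seen. The replication genes and lists were chosen with earlier results of these data known. Alternatives covered normalization, centring, probe set choice, a dim-gene filter, variance models, array weights, the title prefix as a block, and left-out arrays. The fit and exact tests were tested on simulated data.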

Additional observations from a re-analysis of the deposited data

Results flagged for a closer look

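In 132 groups (44 replication genes at 3 stages), 4 held an array far from the others of its stage by Dixon's test, which chance alone does in about 1 of 20 groups (5%). Mcm10 was at 9.33 log2 intensity in E9.5 sample 15, with the nearest other array at 9.08. Lig1 was at 10.52 in E9.5 sample 19, with the nearest at 10.38, and at 9.17 in E13.5 sample B62E7K, under the nearest at 9.23. Rfc5 was at 8.82 in the same E13.5 sample, above the nearest at 8.65. The groups of Mcm10, Lig1 and Rfc5 were called lower in both steps.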

How the results depend on the processing

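Over all alternatives run, 42 to 44 replication genes were lower at E13.5 than at E9.5 and 0 higher, 35 to 40 fell in the first step and 29 to 34 in the second, and no single array changed a count of them by over 1.5 times. Which probe set stood for a gene mattered most. The 3 genes rising in the first step became 1 with the mean of a gene's probe sets, 0 with the second-brightest and 1 without x, s and a probe sets, which was Fen1, whose 2 probe sets both carry such a mark. The 5 rising in the second became 2 with median centring or the title prefix as a random block (correlation 0.60). With the mean or the second-brightest 3 rose, of which only Tk1, a gene with a single probe set, was among those 5. The others were Rfc1 and Pold2 with the mean, and Gins2 and Ccne1 with the second-brightest. The second-step median became -0.67 without x, s and a probe sets, and the whole-interval median -1.32 with median centring, which shifted the median of all genes there to -0.14, and -1.28 with the second-brightest.

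With the mean of a gene's probe sets, the first-step log2 difference turned to -0.30 for Mcm2 and -0.22 for Rrm2, and the second to -0.80 for Mcm7, -0.31 for Cdt1, -0.13 for Gins1, 0.18 for Rfc1 and -0.0041 for Prim1. With the second-brightest, the first step turned to -1.04 for Mcm2, 0.23 for Mcm10, -0.85 for Fen1 and -0.36 for Rrm2. The second turned to -1.20 for Mcm7, -1.06 for Cdt1, -0.72 for Gins1, 0.48 for Gins2, -0.065 for Rfc2, 0.072 for Pola1, 0.22 for Pola2, 0.038 for Pole2, -0.24 for Prim1 and 0.22 for Ccne1, and the whole interval to 0.081 for Pola1. The second-brightest probe sets of Pola1 and Pole2 lie around the lower quartile of intensity, 12, and that of Pola2 lies little above it. Without x, s and a probe sets, the first step turned to -1.04 for Mcm2, 0.23 for Mcm10 and -0.36 for Rrm2, and the second to -1.06 for Cdt1, 0.48 for Gins2 and 0.22 for Ccne1.

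Pairs turned with the mean for Cdt1-Gmnn in the first step (0.34), and for Prim1-Prim2 (-0.059) and Mcm2-Mcm6 (-0.60) over the whole interval. With the second-brightest they turned in the first step for Cdt1-Gmnn (0.30), Ccne1-Ccne2 (-0.74), Rrm1-Rrm2 (0.20), Orc1-Orc2 (-0.50) and Pcna-Fen1 (0.57), in the second for Rrm1-Rrm2 (-0.93) and Prim1-Prim2 (-0.082), and over the whole interval for Rrm1-Rrm2 (-0.73), Prim1-Prim2 (-0.29), Pole-Pole2 (-0.032) and Mcm2-Mcm6 (-0.46). Of the genes' differences between the steps, 12 turned sign with another treatment of probe sets. What sets the probe sets of a gene apart was not tested. No paired analysis was possible because the stages share no sample numbers.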
